A study of Neurospora crassa with 4 samples.

Results

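The genes described here encode the calmodulin branch of calcium signaling in the filamentous fungus Neurospora crassa and the phospholipase C enzymes that act ahead of it. They were chosen by locus and not by a rule on expression, though with earlier results of these data known. The genes are calmodulin (cmd, NCU04120), the calcineurin subunits (cna-1, NCU03804, and cnb-1, NCU03833), the transcription factor crz-1 (NCU07952), 4 Ca2+/calmodulin-dependent protein kinases, or CaM kinases (camk-1 to camk-4), and 2 phospholipases C (plc-1 and plc-2). These are 10 loci, and each was found in 1 of the 9691 rows of the RNA-seq tables. The libraries came from wild-type cells and from cells of a stock center strain deleted for czt-1, the gene of a zinc cluster transcription factor. Conidia, the asexual spores, were grown for 6 h in minimal medium and then exposed for 1 h to 20 μM staurosporine, a broad inhibitor of protein kinases that kills N. crassa cells, or to DMSO, its solvent. The groups were Δczt-1 with staurosporine, Δczt-1 with DMSO, wild type with staurosporine and wild type with DMSO, with 1 library each. The strains otherwise shared medium, temperature, light and harvest, and no gene other than czt-1 is labelled as altered. What was compared was the response to the drug in each strain and the strains under each treatment.

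The level of each gene was given as FPKM, a measure of fragments that is normalized for transcript length and for library size, so levels can be set beside each other between genes. With 1 library in each group there is no replicate error, no test was possible, and "higher" and "lower" describe these 4 libraries only. The read depth behind the values is unknown. Differences are given as log2(FPKM + 1), and those of at least 2-fold were counted over the 7896 rows that reached an FPKM of 1 in at least 1 library, a filter that all 10 genes passed. The FPKM of all rows summed to 550288 in Δczt-1 with staurosporine, 877439 in Δczt-1 with DMSO, 570298 in wild type with staurosporine and 1072129 in wild type with DMSO. When the libraries were scaled to one sum, the median row moved from 0.00 to 0.60 for the response of Δczt-1, from 0.11 to 0.85 for that of the wild type, from -0.03 to 0.02 between the strains with staurosporine and from 0.05 to 0.29 between them with DMSO, and directions of the drug response that this scaling turns are named beside the values. The transcript of czt-1 stood at 1.54 FPKM with staurosporine and 2.26 FPKM with DMSO in Δczt-1, against 384 FPKM with staurosporine and 19.7 FPKM with DMSO in the wild type, so the strain labels fit the levels of the deleted gene. A lower level in every cell and fewer cells with the transcript cannot be told apart in such bulk RNA.

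Calmodulin is a small protein that changes shape when it binds Ca2+ and then binds and activates other proteins. Calcineurin, a protein phosphatase made of the catalytic subunit CNA-1 and the regulatory subunit CNB-1, is one of its targets, and in yeast calcineurin dephosphorylates the transcription factor Crz1, which then enters the nucleus. CaM kinases are protein kinases that calmodulin switches on, and phospholipase C cleaves a membrane phosphoinositide into inositol trisphosphate, known in animal cells for releasing stored Ca2+, and diacylglycerol. In fungi this pathway is known for its part in the response to ionic, cell wall and drug stress.

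The genes covered a wide range of levels, with calmodulin the highest and plc-2 the lowest of the 10 in all 4 libraries. With staurosporine, camk-1 took the second place in both strains, followed by cnb-1, cna-1 and crz-1. With DMSO, the second place belonged to cnb-1 in both strains, the third to the row of plc-1 and the fourth to camk-1. The kinase gene camk-3 was the ninth in every library. Neighbours in these orders could not be set against replicate error.

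**Figure D1:**
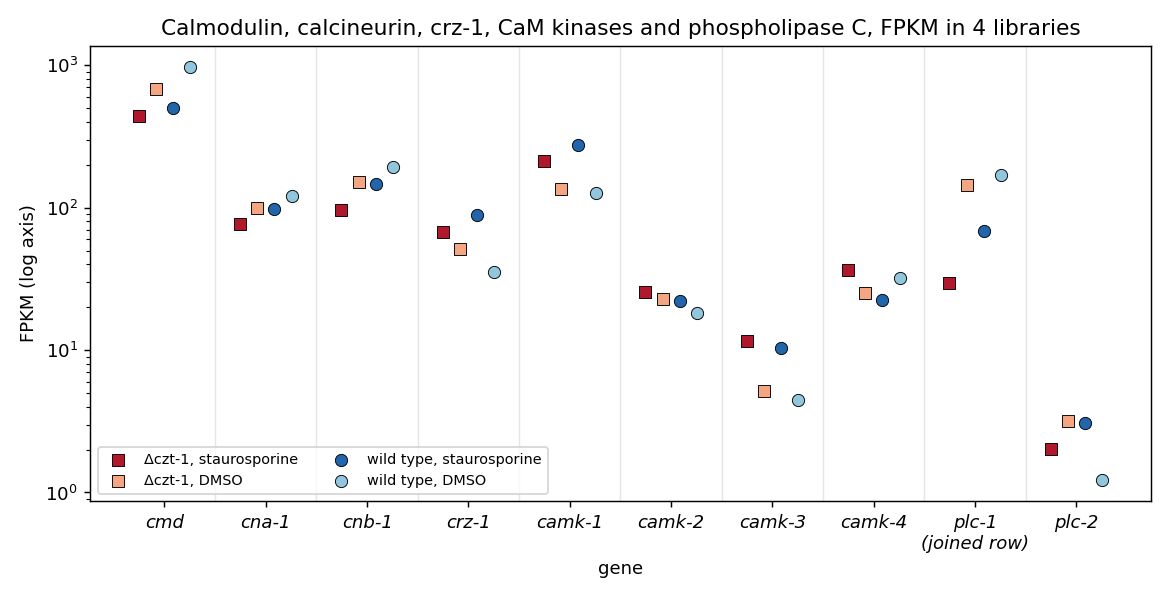
FPKM on a log axis of the 10 genes in the 4 libraries, with 1 point per library, squares for Δczt-1, circles for the wild type, and dark points for staurosporine, light points for DMSO. Calmodulin lies between 443 and 979 FPKM and plc-2 between 1.21 and 3.17 FPKM, and the dark points of camk-1, camk-3 and crz-1 lie above the light points of the same strain while those of the plc-1 row lie below, directions kept when libraries are scaled to the same FPKM sum.

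Calmodulin was among the most abundant transcripts of these cells, and it was lower with staurosporine than with DMSO in both strains. The gene cmd had 443 FPKM with staurosporine and 686 FPKM with DMSO in Δczt-1, and 503 FPKM with staurosporine and 979 FPKM with DMSO in the wild type. Between 97.6% and 98.3% of all rows were at or below it in each library. The log2 difference was -0.63 in Δczt-1 and -0.96 in the wild type, which is 1.55-fold and 1.95-fold lower, just short of 2-fold in the wild type. These differences shrank to 0.04 in Δczt-1, where the direction turned, and -0.05 in the wild type when libraries were scaled to the same sum, while each stayed under the median row of that scaling, by -0.56 in Δczt-1 and -0.90 in the wild type.

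The calcineurin subunits differed little between treatments, and no difference reached 2-fold. The catalytic subunit gene cna-1 had 77.0 FPKM with staurosporine and 99.5 FPKM with DMSO in Δczt-1, and 98.5 FPKM with staurosporine and 120.4 FPKM with DMSO in the wild type. The regulatory subunit gene cnb-1 had 95.7 FPKM with staurosporine and 152 FPKM with DMSO in Δczt-1, and 147 FPKM with staurosporine and 194 FPKM with DMSO in the wild type. As deposited, both genes were at their lowest in Δczt-1 with staurosporine and at their highest in the wild type with DMSO. For cna-1 the log2 difference between staurosporine and DMSO was -0.37 in Δczt-1 and -0.29 in the wild type, and it turned to 0.30 and 0.62 when libraries were scaled to the same sum. For cnb-1 it was -0.66 in Δczt-1 and -0.40 in the wild type, and it turned to 0.01 and 0.51 under that scaling. A ratio within a library does not depend on the scaling: cnb-1 stood at 1.24 times the level of cna-1 in Δczt-1 with staurosporine and 1.52 times with DMSO, and at 1.49 times in the wild type with staurosporine and 1.61 times with DMSO. The regulatory subunit transcript was therefore the more abundant in every library. Calmodulin stood at 5.76 times the level of cna-1 in Δczt-1 with staurosporine and 6.89 times with DMSO, and at 5.10 times in the wild type with staurosporine and 8.13 times with DMSO.

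The transcription factor gene crz-1 was higher with staurosporine in both strains, and by more in the wild type. Its C2H2 zinc finger product is named after the yeast factor on which calcineurin acts. It had 67.4 FPKM with staurosporine and 51.0 FPKM with DMSO in Δczt-1, and 89.0 FPKM with staurosporine and 35.5 FPKM with DMSO in the wild type. Both staurosporine libraries thus lay above both DMSO libraries. The log2 difference was 0.40 in Δczt-1, 1.32-fold higher, and 1.30 in the wild type, 2.46-fold higher. Scaling to the same sum raised these values to 1.06 and 2.19. Relative to the median row of that scaling they were 0.46 in Δczt-1 and 1.34 in the wild type. The responses of the strains differed by -0.91, short of 2-fold as deposited and -1.13 with the same-sum scaling, and the difference was not tested. Relative to the median row of that scaling, the difference was -0.86.

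The CaM kinase genes did not move as a block. Levels of camk-1, by far the most abundant of them, and of camk-3, the least abundant, were higher with staurosporine in both strains, and camk-2 differed less. As deposited, camk-4 differed in opposite directions in the strains. With libraries scaled to the same sum both camk-4 differences were above 0, but they lay on opposite sides of the median row. The gene camk-1 (NCU09123) had 212 FPKM with staurosporine and 135 FPKM with DMSO in Δczt-1, and 274 FPKM with staurosporine and 127 FPKM with DMSO in the wild type. Its log2 difference was 0.65 in Δczt-1, 1.57-fold higher, and 1.10 in the wild type, 2.14-fold higher. The gene camk-3 (NCU06177) had 11.6 FPKM with staurosporine and 5.14 FPKM with DMSO in Δczt-1, and 10.3 FPKM with staurosporine and 4.43 FPKM with DMSO in the wild type. Its response was nearly the same in the strains, with log2 differences of 1.03 in Δczt-1 and 1.05 in the wild type, or 2.05-fold and 2.08-fold higher. As deposited, camk-3 alone of the 4 kinase genes passed 2-fold in Δczt-1, and camk-1 and camk-3 did so in the wild type. The wild-type values of camk-1 and camk-3 came to 0.99 and 0.94, just below 2-fold, when differences were centred on the median row.

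The gene camk-2 (NCU02283) had 25.5 FPKM with staurosporine and 22.9 FPKM with DMSO in Δczt-1, and 22.2 FPKM with staurosporine and 18.3 FPKM with DMSO in the wild type, a narrow range over all libraries. Its log2 differences of 0.15 in Δczt-1 and 0.27 in the wild type became 0.80 and 1.14 with the same-sum scaling, within 0.20 and 0.29 of the median row there. The gene camk-4 (NCU09212) had 36.2 FPKM with staurosporine and 25.0 FPKM with DMSO in Δczt-1, against 22.4 FPKM with staurosporine and 32.2 FPKM with DMSO in the wild type. The level with staurosporine was therefore the higher of the pair in Δczt-1 and the lower of the pair in the wild type, with log2 differences of 0.52 in Δczt-1 and -0.51 in the wild type, although the wild-type value turned to 0.37 when libraries were scaled to the same sum. Relative to the median row of that scaling, camk-4 stood at 0.57 in Δczt-1 and -0.48 in the wild type. The difference between the responses was 1.02, or 0.80 with that scaling, and it was not tested. As shares of the summed FPKM of the 4 kinase genes within a library, camk-4 held 12.7% in Δczt-1 with staurosporine and 13.3% with DMSO, and 6.80% in the wild type with staurosporine and 17.7% with DMSO. The share of camk-1 was 74.3% in Δczt-1 with staurosporine and 71.8% with DMSO, and 83.3% in the wild type with staurosporine and 69.9% with DMSO. In the wild type, camk-1 thus made up more of the kinase transcripts with staurosporine and camk-4 less. Calmodulin stood at 2.09 times the level of camk-1 in Δczt-1 with staurosporine and 5.08 times with DMSO, and at 1.83 times in the wild type with staurosporine and 7.69 times with DMSO. The transcript of the sensor and that of its most abundant kinase were therefore closer in level with staurosporine than with DMSO in both strains, whatever the scaling of the libraries.

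**Figure D2:**
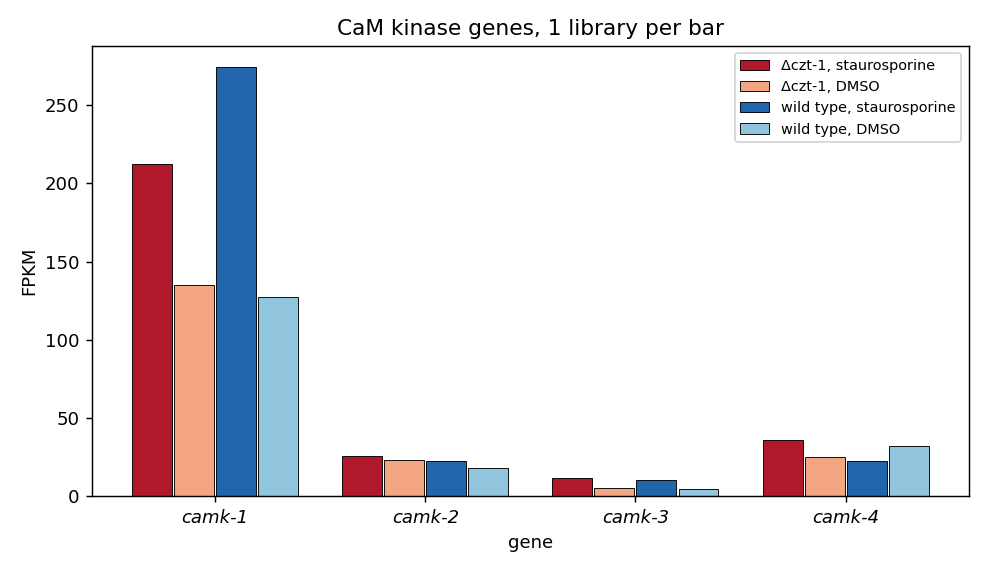
FPKM of the CaM kinase genes camk-1 to camk-4 on a linear axis from 0, with 1 bar per library and no error bars because each group has 1 library. The bars of camk-1 reach 212 and 274 FPKM with staurosporine, against 135 and 127 FPKM with DMSO. Those of camk-4 run in opposite directions in the strains. With libraries scaled to the same FPKM sum, camk-4 is higher with staurosporine in both strains. Relative to the median row of that scaling its log2 differences stay opposite, at 0.57 in Δczt-1 and -0.48 in the wild type.

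The rows that hold the phospholipase C genes differed in level and in response, but the row of plc-1 also holds another gene. The 2 genes themselves can therefore not be set against each other. The row that holds plc-1 (NCU06245) joined that locus with NCU06244, the gene tim13 for a small protein of mitochondrial import, which is its direct neighbour in the RefSeq gene order, and the reads of the 2 genes cannot be told apart. The joined row had 29.7 FPKM with staurosporine and 145 FPKM with DMSO in Δczt-1, and 68.2 FPKM with staurosporine and 168 FPKM with DMSO in the wild type. It was lower with staurosporine in both strains, by a log2 difference of -2.25 in Δczt-1, 4.75-fold, and -1.29 in the wild type, 2.45-fold. With the same-sum scaling these were -1.59 in Δczt-1 and -0.39 in the wild type, no longer 2-fold there. Other genes of mitochondrial import, looked up after this row was seen, were also lower with staurosporine: the 10 other rows with a tim symbol ranged from -3.23 to -0.57 with a median of -2.43 in Δczt-1, and from -2.25 to -0.62 with a median of -1.75 in the wild type, and all but tim14 stayed lower in both strains with the same-sum scaling. Of these 10 rows, 9 were at least 2-fold lower in each strain as deposited, beside 19.6% of all rows in Δczt-1 and 14.0% in the wild type. How much of the joined row belongs to plc-1 was not tested.

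The gene plc-2 (NCU01266) had 2.01 FPKM with staurosporine and 3.17 FPKM with DMSO in Δczt-1, against 3.07 FPKM with staurosporine and 1.21 FPKM with DMSO in the wild type. It was a transcript of low level in every library, with only 28.4% to 36.0% of rows at or below it. The wild type with DMSO was the lowest of the 4 libraries and the other 3 lay between 2.01 and 3.17 FPKM. The log2 difference was -0.47 in Δczt-1, which turned to 0.01 with the same-sum scaling, and 0.88 in the wild type, or 1.46 with that scaling. The responses of the strains thus differed by -1.35, or -1.44 with the same-sum scaling, and the difference was not tested. Relative to the median row of that scaling, plc-2 stood at -0.59 in Δczt-1 and 0.60 in the wild type. As a plain ratio of FPKM without an added 1, plc-2 was 2.53-fold higher with staurosporine in the wild type and 1.58-fold lower in Δczt-1.

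**Figure D3:**
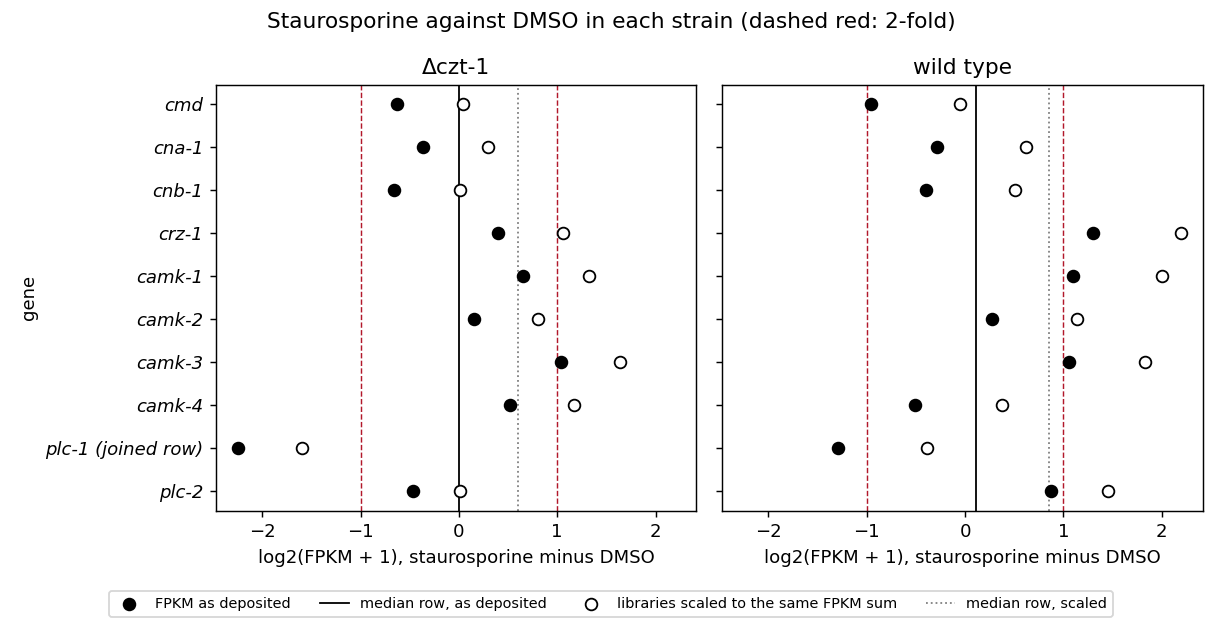
Differences in log2(FPKM + 1) between staurosporine and DMSO for the 10 genes, with Δczt-1 on the left and the wild type on the right, filled points for FPKM as deposited and open points for libraries scaled to the same FPKM sum. Black and dotted grey lines mark the median row in each setting (0.00 and 0.60 in Δczt-1, 0.11 and 0.85 in the wild type), red dashed lines mark 2-fold, and cmd, cna-1, cnb-1 and plc-2 in Δczt-1 and cna-1, cnb-1 and camk-4 in the wild type cross 0 between the settings.

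Counts of the 10 genes past 2-fold were read against the share of all rows past it. In Δczt-1, 1 gene was at least 2-fold higher with staurosporine, camk-3, where 18.2% of all 7896 rows were, and 1 was at least 2-fold lower, the plc-1 row, where 19.6% of rows were. In the wild type, 3 genes were at least 2-fold higher, crz-1, camk-1 and camk-3, against 12.8% of rows, and 1 was at least 2-fold lower, again the plc-1 row, against 14.0% of rows. Of 10 genes, 3 is a larger share than that background in the wild type, but it is a count of 3 with no replicate. With libraries scaled to the same sum, 4 genes were at least 2-fold higher and 1 lower in Δczt-1, where 35.0% of all rows were higher and 10.7% lower, and 5 were higher and 0 lower in the wild type, where 43.1% of rows were higher and 4.47% lower. The median of the 10 genes was -0.11 in Δczt-1 and -0.01 in the wild type, beside 0.00 and 0.11 over all rows. Larger differences than theirs were common: the share of rows with a larger absolute difference was 9.42% for the plc-1 row and 36.1% for camk-3 in Δczt-1, and 17.2% for crz-1, 17.4% for the plc-1 row, 23.3% for camk-1 and 24.9% for camk-3 in the wild type.

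The responses of the strains to staurosporine were set against each other as a difference, the response of Δczt-1 minus that of the wild type. It was at least 2-fold higher for 1 gene, camk-4 at 1.02, where 13.5% of all rows were, and at least 2-fold lower for 1, plc-2 at -1.35, where 17.5% of rows were. The plc-1 row at -0.96 and crz-1 at -0.91 came close to 2-fold. For camk-3 the difference was -0.02, and for cna-1 it was -0.08. The difference was below 0 for 8 of the 10 genes, with a median of -0.19 beside -0.07 over all rows, and cmd at 0.33 and camk-4 were those above 0. Of all rows, 52.3% lay below camk-3, the gene nearest to 0, so values below 0 were common. When differences were centred on the median row, camk-3 turned to 0.05.

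**Figure D4:**
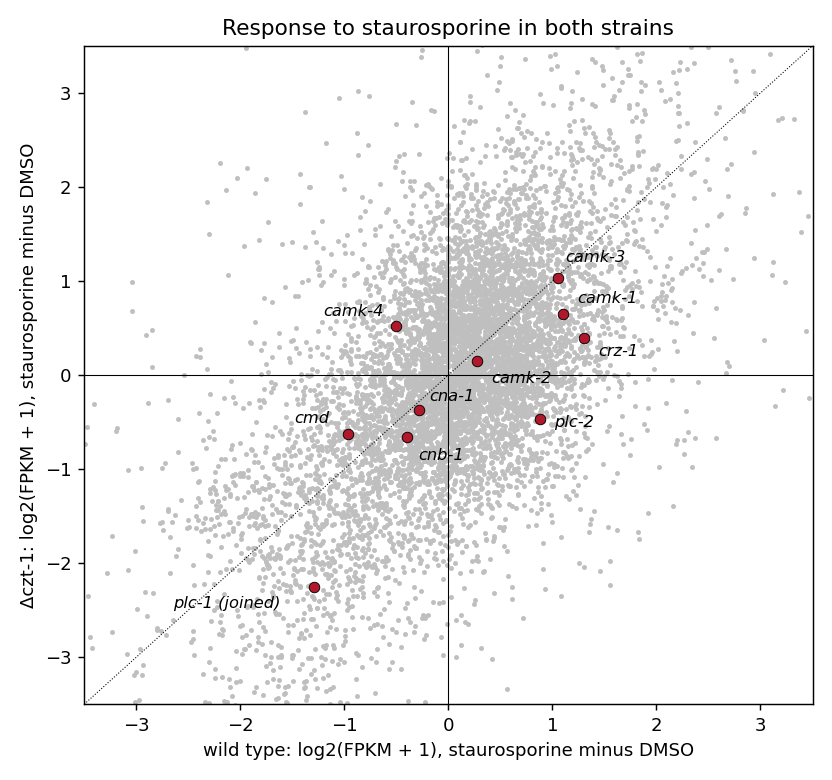
Response to staurosporine, in log2(FPKM + 1) against DMSO, in the wild type on the x axis and in Δczt-1 on the y axis, for all rows past the filter (grey) and the 10 genes (red), with a dotted line of equal response and 240 of 7896 rows outside the axes. The gene camk-3 lies near the line at 1.05 and 1.03, and crz-1 and camk-1 lie below it. The genes camk-4 and plc-2 lie in quadrants of opposite direction, which they leave when libraries are scaled to the same FPKM sum. Relative to the median row of that scaling, camk-4 is at 0.57 in Δczt-1 and -0.48 in the wild type. In the same terms plc-2 is at -0.59 in Δczt-1 and 0.60 in the wild type, so both keep opposite directions.

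Between the strains, few of these genes differed by much, and each comparison shares its libraries with those of the drug response. With staurosporine, the plc-1 row was at least 2-fold lower in Δczt-1 than in the wild type, at 29.7 against 68.2 FPKM and a log2 difference of -1.17, where 12.2% of all rows were at least 2-fold lower, and 0 genes were at least 2-fold higher, where 10.9% of rows were. The other genes ranged from -0.61 for cnb-1 to 0.67 for camk-4. The median of the 10 was -0.36 beside -0.03 over all rows, and 7 were below 0. Of all rows, 41.4% lay below cmd at -0.18 and 59.0% below camk-3 at 0.16, the genes nearest to 0 on either side. With DMSO, 0 of the 10 genes passed 2-fold between the strains, where 2.58% of rows were at least 2-fold higher and 2.36% lower in Δczt-1. On the log2(FPKM + 1) scale the largest difference was that of plc-2, at 3.17 FPKM in Δczt-1 against 1.21 FPKM in the wild type, a log2 difference of 0.91, and 6.45% of rows had a larger absolute difference. It passed 2-fold as a plain ratio of FPKM, which was 2.61. Calmodulin at -0.51 and crz-1 at 0.51 followed, and the other genes lay between -0.35 and 0.31, of which cna-1 at -0.27 turned to 0.01 and the plc-1 row at -0.22 turned to 0.07 with the same-sum scaling.

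Other genes of calcium handling were described from a list that the study drew up, with the genes above left out, and since that list comes from a study of these libraries its counts are not independent evidence of a direction. Of its 44 loci, 42 passed the filter. In Δczt-1, 9 of them were at least 2-fold higher with staurosporine and 4 lower, with a median of -0.05, beside 18.2% and 19.6% of all rows and a median of 0.00. In the wild type, 15 were higher and 2 lower, with a median of 0.43, beside 12.8% and 14.0% of all rows and a median of 0.11. With the same-sum scaling these counts were 15 higher and 1 lower in Δczt-1, where 35.0% and 10.7% of all rows were, and 25 higher and 0 lower in the wild type, where 43.1% and 4.47% were. Between the strains with staurosporine, 2 were higher and 10 lower in Δczt-1, beside 10.9% and 12.2% of all rows. With DMSO, 2 were higher and 2 lower, beside 2.58% and 2.36%. The response of Δczt-1 was at least 2-fold above that of the wild type for 4 and below it for 17, with a median of -0.44, beside 13.5% and 17.5% of all rows and a median of -0.07.

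Among the channels, pumps and exchangers of that list, 6 of the 21 that passed the filter were at least 2-fold higher with staurosporine and 1 was lower in Δczt-1, beside 18.2% and 19.6% of all rows, and 10 were higher and 1 lower in the wild type, beside 12.8% and 14.0%. With the same-sum scaling, 11 were higher and 0 lower in Δczt-1, where 35.0% and 10.7% of all rows were. In the wild type 13 were then higher and 0 lower, where 43.1% and 4.47% were. The largest difference was that of NCU08147, described as a P-type ATPase for sodium or potassium, with 72.8 FPKM with staurosporine and 13.2 FPKM with DMSO in Δczt-1, and 109 FPKM with staurosporine and 7.86 FPKM with DMSO in the wild type. NCU05046, described as a calcium-transporting ATPase, had 153 and 96.3 FPKM with staurosporine and DMSO in Δczt-1, and 173 and 40.04 FPKM in the wild type. NCU08166, which carries no functional description, had 8.48 and 0.840 FPKM with staurosporine and DMSO in Δczt-1 but 4.88 and 4.85 FPKM in the wild type. NCU08147 and NCU05046 were thus higher with staurosporine in both strains and more so in the wild type, which did not hold for every ATPase of the list, and NCU08166 had nearly the same deposited level in both libraries of the wild type.

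Of 3 further phospholipases of the list, 0 were at least 2-fold higher and 1 lower with staurosporine in Δczt-1, beside 18.2% and 19.6% of all rows. In the wild type, 1 was higher and 0 lower, beside 12.8% and 14.0%. NCU02175, described as a phosphatidylinositol-specific phospholipase C, had 12.4 FPKM with staurosporine and 18.4 FPKM with DMSO in Δczt-1, and 15.0 FPKM with staurosporine and 5.43 FPKM with DMSO in the wild type. Its log2 difference in Δczt-1 was -0.54 and turned to 0.10 with the same-sum scaling. As for plc-2, the wild type with DMSO was the lowest of its 4 libraries, and its log2 difference between the strains with DMSO was 1.59. NCU06650, described as a secretory phospholipase A2, had 30.9 FPKM with staurosporine and 89.7 FPKM with DMSO in Δczt-1, and 127 FPKM with staurosporine and 95.1 FPKM with DMSO in the wild type, so that Δczt-1 with staurosporine was its lowest library. The calcium-binding proteins comprised 14 genes, of which 3 were at least 2-fold higher and 2 lower with staurosporine in Δczt-1, and 2 higher and 1 lower in the wild type, beside the same shares of all rows as above. NCU04421, an annexin, had 20.5 and 9.16 FPKM with staurosporine and DMSO in Δczt-1, and 50.2 and 9.88 FPKM in the wild type. NCU06948, with the EF-hand fold that also binds Ca2+ in calmodulin, had 73.5 and 23.7 FPKM with staurosporine and DMSO in Δczt-1, and 50.4 and 20.5 FPKM in the wild type. NCU08980, an alternative NADH dehydrogenase of the mitochondrion, had 37.5 and 361 FPKM with staurosporine and DMSO in Δczt-1, and 124 and 401 FPKM in the wild type, and was the one of these 3 with lower levels under the drug.

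Of 4 kinases and other proteins of the list, 0 were at least 2-fold higher with staurosporine in Δczt-1 and 2 in the wild type, beside 18.2% and 12.8% of all rows. NCU02814, described as a kinase of the chk2 type, had 36.5 and 18.2 FPKM with staurosporine and DMSO in Δczt-1, and 30.8 and 12.8 FPKM in the wild type. NCU04265, with no functional description, had 46.6 FPKM with staurosporine and 71.3 FPKM with DMSO in Δczt-1, and 322 FPKM with staurosporine and 64.7 FPKM with DMSO in the wild type. The staurosporine library of the wild type was the highest for this gene, while its log2 difference of -0.60 in Δczt-1 turned to 0.06 with the same-sum scaling.

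A second list took 35 further rows whose description names inositol, phospholipase C, calcineurin, calcipressin, calmodulin or protein kinase C, of which 34 passed the filter. With staurosporine, 3 were at least 2-fold higher and 4 lower in Δczt-1, beside 18.2% and 19.6% of all rows, and 4 were higher and 0 lower in the wild type, beside 12.8% and 14.0%. With the same-sum scaling, 10 were higher and 1 lower in Δczt-1, beside 35.0% and 10.7% of all rows, and 22 were higher and 0 lower in the wild type, beside 43.1% and 4.47%. NCU01504, described as a calcineurin binding protein, had 169 FPKM with staurosporine and 82.7 FPKM with DMSO in Δczt-1, and 490.5 FPKM with staurosporine and 72.6 FPKM with DMSO in the wild type. Its log2 difference was 1.02 in Δczt-1 and 2.74 in the wild type, so this transcript, like crz-1, was higher with the drug in both strains and more so in the wild type. NCU07199, described as a myo-inositol transporter, had 5.56 FPKM in Δczt-1 with staurosporine and between 0.327 and 0.399 FPKM in the other 3 libraries. NCU08301, described as a calcineurin-like phosphoesterase, a family of enzymes wider than calcineurin, had 6.83 and 27.5 FPKM with staurosporine and DMSO in Δczt-1, and 13.9 and 23.4 FPKM in the wild type, where the log2 difference of -0.72 turned to 0.15 with the same-sum scaling.

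For the genes past 2-fold in a drug response or between the strains under a treatment (crz-1, camk-1, camk-3 and the plc-1 row), the rows with the most similar pattern were found by the Euclidean distance of log2(FPKM + 1) over the 4 libraries, each row centred on its mean, among 7832 rows of single loci. With 4 points per row many rows come close by, and 64 rows lay within a distance of 0.25 of crz-1, 57 of camk-1, 81 of camk-3 and 33 of the plc-1 row. The nearest to crz-1 were NCU05131, of no known function, at 0.089 and gh63-1, described as a mannosyl-oligosaccharide glucosidase, at 0.090. NCU05131 had only 0.206 to 1.91 FPKM, a level at which the added 1 shrinks differences, so its FPKM ratios are not those of crz-1. The nearest to camk-1 were NCU07472, described as a subunit of an alpha-1,6-mannosyltransferase, at 0.087 and NCU09188 at 0.094. The same limit holds for NCU09188, with 0.171 to 1.57 FPKM. The nearest to camk-3 were NCU05820 at 0.015, with 3.23 and 1.09 FPKM with staurosporine and DMSO in Δczt-1 and 2.78 and 0.836 FPKM in the wild type, and NCU09241 at 0.065. The nearest to the plc-1 row were NCU11633 at 0.045 and ad-5, a gene of purine synthesis, at 0.097, with 126 and 658 FPKM with staurosporine and DMSO in Δczt-1 and 291 and 713 FPKM in the wild type. These rows shared the order of their 4 libraries with the gene they stand beside, and no more is drawn from it.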

How the data were processed

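RNA-seq of 4 libraries, 1 per group, was analysed. The authors obtained single reads of 50 bases, and the labels name TopHat2 2.0.4, Cufflinks 2.0.2 and Cuffdiff. No source used here gives the genome build or how reads shared between genes were assigned. The deposited tables hold FPKM made by the authors, written with a decimal comma, in 3 tables of 9691 rows, and 2 columns repeated between tables were identical. Their columns of fold change, test statistic, p-value and q-value were not used. Of the rows, 66 join several loci.

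Differences of log2(FPKM + 1) were computed over rows that reached an FPKM of 1 in at least 1 library and counted at 2-fold. The step of 1 read could not be recovered from low values, since at most 14.5% of ratios fell on a common step, so depth stayed unknown. All 10 genes are named. Of each other list, at most 3 genes were named by size, those with the largest differences among the genes past 2-fold in a drug response or between the strains. The 2 nearest profiles are given only for those of the 10 genes that passed 2-fold in such a comparison. The genes and lists were chosen with earlier results of these data known. Pseudocounts of 0.1 and 5, scaling to the same sum, centring on the median row, a 1.5-fold threshold, no filter and a filter at 10 FPKM were tried. In RefSeq (NC12), 10 of 10 loci matched by locus tag and 7 had a gene symbol, so not every gene name used here comes from it. Scripts in Python 3.11.15 with numpy 2.4.6, pandas 2.3.3 and matplotlib 3.10.9 were tested on simulated data.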

Additional observations from a re-analysis of the deposited data

Results flagged for a closer look

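Among the 10 genes, camk-4 and plc-2 differed in opposite directions between staurosporine and DMSO in the strains. For camk-4 the log2 difference was 0.52 in Δczt-1 and -0.51 in the wild type, 1.02 apart, and with libraries scaled to the same FPKM sum both were above 0, at 1.17 and 0.37. For plc-2 it was -0.47 in Δczt-1 and 0.88 in the wild type, -1.35 apart, and with that scaling 0.01 and 1.46. Relative to the median row of that scaling, the directions stayed opposite for both genes. There camk-4 stood at 0.57 in Δczt-1 and -0.48 in the wild type, and plc-2 at -0.59 and 0.60. Each group has 1 library, and the difference was not tested for either gene.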

How the results depend on the processing

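Over the 10 genes and the alternatives, 345 values were compared, of which 316 kept their side of the threshold, 21 newly passed it, 8 no longer did and 0 changed sign while past 2-fold. The settings with no filter and with a filter at 10 FPKM leave the value of a gene as it was. Their values could therefore only keep their side, and the 316 are no measure of robustness. The 1.5-fold threshold also leaves each value as it was and can only add values past the threshold. For that reason the 21 and the 8 cannot be weighed against each other. For the response of Δczt-1, the 2 genes past 2-fold became 1 with a pseudocount of 5, 5 with libraries scaled to the same FPKM sum (4 higher and 1 lower) and 5 at a 1.5-fold threshold. For that of the wild type, the 4 genes (3 higher and 1 lower) became 5 higher and 0 lower with the same-sum scaling, and 1 higher and 2 lower when centred on the median row, cmd at -1.07 then being the second lower one. Between the strains with staurosporine, the 1 gene became 3 at 1.5-fold. With DMSO, the 0 genes became 1, plc-2, with a pseudocount of 0.1, with the same-sum scaling and at 1.5-fold. For the difference of responses, the 2 genes became 0 with a pseudocount of 5, 4 at 1.5-fold and 1 with the filter at 10 FPKM, which leaves out plc-2, and with the same-sum scaling 0 were higher and 3 lower. Of the other calcium genes, the 13 in Δczt-1 became 25 and the 4 between the strains with DMSO became 13 at 1.5-fold. Under these alternatives, the share of all rows past the threshold was computed only for the drug responses with the same-sum scaling. The other counts under alternatives, those at 1.5-fold among them, therefore say nothing particular to these genes. For the response of Δczt-1, 56.5% of all rows had a larger absolute difference than cmd at -0.63, which is past 1.5-fold. The cause of the changes in count was not tested beyond the settings themselves. With 1 library per group, no replicate could be left out and no paired analysis of replicates was possible. The low level of plc-2 and the joined row of plc-1 limit what their values show.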

Other observations

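Besides cmd, 2 other rows carry the description calmodulin. NCU00171 had 71.9 FPKM with staurosporine and 24.7 FPKM with DMSO in Δczt-1, and 40.5 FPKM with staurosporine and 21.8 FPKM with DMSO in the wild type, and was thus higher with staurosporine in both strains, where cmd had log2 differences of -0.63 in Δczt-1 and -0.96 in the wild type (0.04 and -0.05 with libraries scaled to the same FPKM sum). NCU03750 had between 5.56 and 6.33 FPKM in all 4 libraries. NCU06666, described as inositol-3-phosphate synthase, an enzyme that makes the inositol of phosphoinositides, had 467 FPKM with staurosporine and 1065 FPKM with DMSO in Δczt-1, and 1630 FPKM with staurosporine and 1039 FPKM with DMSO in the wild type, so that it was lowest in Δczt-1 with staurosporine and highest in the wild type with staurosporine. These rows were named after their values were seen, and no difference was tested.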
